A study of Homo sapiens with 12 samples.

Results

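Lenvatinib is a small molecule given for hepatocellular carcinoma that blocks several receptor tyrosine kinases, among them those for VEGF, FGF and PDGF. The data described here are the part of its transcriptional effect that differed between Huh7 and PLC/PRF/5, which are established human hepatocellular carcinoma lines. For each gene the change in PLC/PRF/5 (lenvatinib against DMSO) minus the change in Huh7 (lenvatinib against DMSO) was tested over all 12 libraries, and 2243 of 15587 tested genes passed. A positive difference therefore means a larger rise, or a smaller fall, in PLC/PRF/5. The 4 groups were wild-type Huh7 with DMSO, wild-type Huh7 with lenvatinib, wild-type PLC/PRF/5 with DMSO and wild-type PLC/PRF/5 with lenvatinib, with 3 libraries each. DMSO is the drug's solvent and was the control. The labels give neither the dose nor the duration, and whether the 3 libraries of a group are separate cultures is not said there either. The p-values therefore rest on a spread between libraries that may be technical.

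Receptor kinases of this kind signal through RAS, RAF and MEK to the kinase ERK, which switches on cyclin D1, the PEA3 family of ETS factors and its own inhibitors of the Sprouty and DUSP families. Cyclin D1 with its kinases releases E2F factors, and E2F drives the genes of DNA replication. Hepatocyte-like cells also make plasma proteins such as fibrinogen, whose genes answer to interleukin-6, and they carry interferon-stimulated genes, which code for antiviral proteins. All of these sets were looked at for whether their response was the same in both lines.

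Libraries held 70236175 to 75820318 counts. The share of counts on mitochondrial transcripts was 5.57% to 5.69% in Huh7 with DMSO, 6.33% to 6.88% in Huh7 with lenvatinib, 10.3% to 10.6% in PLC/PRF/5 with DMSO and 10.99% to 11.3% in PLC/PRF/5 with lenvatinib. Replicates differed most between Huh7 lenvatinib libraries 2 and 3, with a chi-square per degree of freedom of 89.02, against 52.9 to 67.9 for the other pairs within groups. All 8 listed hepatocyte markers were counted in both lines. Their summed level was 4492 to 4652 CPM (counts scaled to library size, with TMM factors) in Huh7 with DMSO and 5941 to 9288 with lenvatinib, with 7 of 8 group means higher. In PLC/PRF/5 the sum was 6743 to 7306 with DMSO and 4719 to 4973 with lenvatinib. The lower sum there came from APOB (group means 4996 and 3197 CPM) and FGB (1020.0 and 440.1 CPM), while the other 6 means were higher with lenvatinib, SERPINA1 among them (490.1 and 696 CPM). Albumin was low in PLC/PRF/5, with group means of 7.53 and 10.8 CPM, and transthyretin was under 1 CPM there. Summed markers of fibroblasts were at 167 to 169 CPM in Huh7 with DMSO, 106 to 122 with lenvatinib and 5.52 to 15.3 in PLC/PRF/5. The leukocyte markers summed to 7.96 to 11.8 CPM in Huh7. In PLC/PRF/5 they summed to 79.2 to 84.7 CPM with DMSO and 82.8 to 93.1 with lenvatinib, almost wholly LYZ (group means 38.6 and 56.9 CPM) and CD68 (42.03 and 30.97 CPM), while PTPRC, the defining leukocyte marker, had group means of 0.107 to 0.237 CPM in both lines. The part that these marker levels play in the results was not tested.

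Of the tested genes, 14.4% were called for the difference (edgeR's quasi-likelihood F test, Benjamini-Hochberg adjusted p under 0.05), 1167 of them higher (7.49% of tested) and 1076 lower (6.9%). For lenvatinib against DMSO within each line, from the same fit, 3850 genes were called in Huh7 (24.7%) and 3133 in PLC/PRF/5 (20.1%). Across all tested genes the log2 fold changes of the lines had a Pearson r of 0.0862, and over the 1399 genes called in both lines it was 0.519. Of these 1399, 1125 moved the same way in both lines and 274 in opposite ways. These correlations are descriptions across genes, which are not independent replicates. The median log2 fold change of all tested genes was 0.00 in Huh7, -0.01 in PLC/PRF/5 and -0.01 for the difference.

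The called genes were sorted by what each line did. In 274 genes (12.2% of those called, 1.76% of those tested) both lines were called with opposite signs: 140 rose in Huh7 and fell in PLC/PRF/5 (0.898% of tested), and 134 did the reverse (0.86%). A response in Huh7 only was assigned to 795 genes (35.4% of those called, 5.1% of those tested), of which 479 fell (3.07% of tested) and 316 rose (2.03%). A response in PLC/PRF/5 only was assigned to 492 genes (21.9% of those called, 3.16% of those tested), of which 296 fell (1.9% of tested) and 196 rose (1.26%). For these, the other line was not called and the 95% interval of its change lay within 1.5-fold either way (0.585 on the log2 scale). In the called line the median log2 fold change was -0.62 for falls and 0.52 for rises in Huh7 only. For PLC/PRF/5 only it was -0.46 and 0.50. The bound is about as large as these, so a smaller change in the other line is not excluded. A further 177 genes (7.89% of those called, 1.14% of those tested) moved the same way in both lines by unequal amounts, and 134 of them moved more in Huh7. In 367 genes 1 line was called and the other was neither called nor bounded. In 28 the other line was under 1 CPM in both its groups, and in 110 neither line was called by itself. A difference of at least 2-fold was seen in 663 of the called genes, 349 higher and 314 lower.

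**Figure D1:**
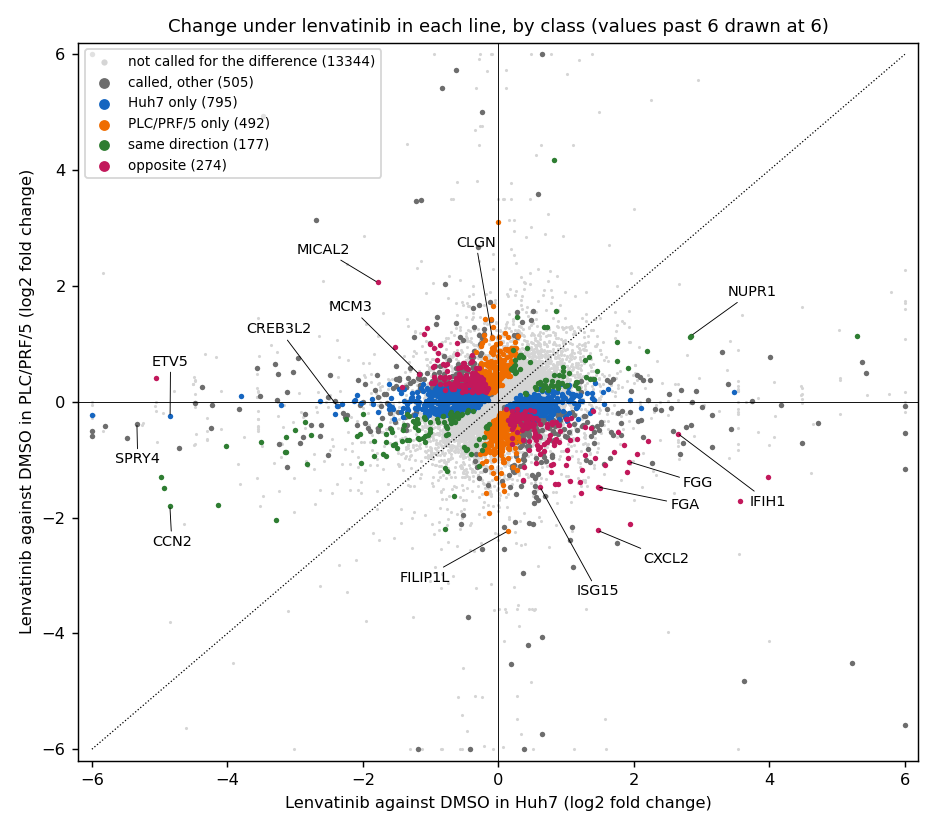
Each point is 1 tested gene, with its log2 fold change under lenvatinib in Huh7 on the horizontal axis and in PLC/PRF/5 on the vertical axis, and the colours give its class. The 274 opposite genes fill the upper left and lower right corners, the Huh7-only genes lie along the horizontal axis, and genes far below 0 in Huh7 such as SPRY4 and ETV5 lie near 0 in PLC/PRF/5.

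The fibrinogen genes were the clearest opposite response. FGA, FGB and FGG encode the alpha, beta and gamma chains of fibrinogen, the clot-forming plasma protein that hepatocytes secrete, and they lie next to each other on chromosome 4 (154562956 to 154612967, GRCh38, GENCODE 29). FGB stood at 184, 172 and 177 CPM in Huh7 with DMSO and at 664, 730.2 and 591 with lenvatinib, while in PLC/PRF/5 it went from 1055, 1017 and 988 to 446, 458 and 416. Its log2 fold change was 1.90 ± 0.07 (SE) in Huh7 and -1.21 ± 0.07 in PLC/PRF/5 (edgeR adjusted p = 7.03e-08 and 5.71e-06). FGG went from 148, 154 and 148 to 600.3, 564 and 552 CPM in Huh7 and from 1806, 1812 and 1803 to 853, 882 and 909 in PLC/PRF/5. FGA went from 435, 409.8 and 420.2 to 1173, 1261 and 1071 CPM in Huh7 and from 4002, 3715 and 3659 to 1380.00, 1349 and 1370.00 in PLC/PRF/5. In all 3 genes the PLC/PRF/5 controls were the highest group and the Huh7 controls the lowest. No lenvatinib library overlapped a DMSO library of its line, but these genes were named under that condition. Over all 15587 tested genes, 6487 had no such overlap in Huh7 and 6247 in PLC/PRF/5. With lenvatinib, FGA came within a narrow range in the lines, at 1071 to 1261 CPM in Huh7 and 1349 to 1380 in PLC/PRF/5, whereas the controls had differed by a wide margin.

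The windows from 250 bases before to 50 bases after the start of these genes are shown because the 3 neighbours moved together (RefSeq, GRCh38.p14; 1 entry per gene was used). They were searched on both strands for CTGGGAA, the core of the interleukin-6 response element, and for GTTAATNNT, a motif like that of the hepatocyte factor HNF1. Matches are in capitals. FGB held CTGGGAA 112 bases and the HNF1-like motif 54 bases before its start. FGG held CTGGGAA 161 bases and FGA the HNF1-like motif 55 bases before the start. Among 27305 promoters of the same length, 11% held CTGGGAA and 2.33% the HNF1-like motif. A match is a description of the letters and shows no binding.
FGB (chr4:154562730-154563029, plus strand): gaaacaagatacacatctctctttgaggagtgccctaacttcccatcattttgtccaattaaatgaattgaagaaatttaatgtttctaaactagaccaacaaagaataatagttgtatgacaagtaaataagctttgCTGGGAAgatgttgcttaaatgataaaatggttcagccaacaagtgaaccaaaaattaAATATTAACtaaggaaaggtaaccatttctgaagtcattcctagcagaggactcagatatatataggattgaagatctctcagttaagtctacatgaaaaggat
FGG (chr4:154612607-154612906, minus strand): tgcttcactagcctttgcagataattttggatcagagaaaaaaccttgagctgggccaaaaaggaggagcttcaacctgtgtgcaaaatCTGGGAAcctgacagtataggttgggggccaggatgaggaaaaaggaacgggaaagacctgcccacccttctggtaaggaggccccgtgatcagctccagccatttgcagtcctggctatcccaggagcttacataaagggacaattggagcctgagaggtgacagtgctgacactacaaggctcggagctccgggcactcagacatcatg
FGA (chr4:154590693-154590992, minus strand): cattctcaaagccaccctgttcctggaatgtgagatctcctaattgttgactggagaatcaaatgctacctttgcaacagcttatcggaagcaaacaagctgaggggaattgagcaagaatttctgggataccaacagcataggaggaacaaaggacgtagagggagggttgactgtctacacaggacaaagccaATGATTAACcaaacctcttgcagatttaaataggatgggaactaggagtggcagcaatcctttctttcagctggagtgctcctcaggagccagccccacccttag

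Of the 16 tested acute phase genes (22 listed), 6 were lower for the difference and 0 higher, and the list's median difference was -0.74. Of these members 7 rose in Huh7 and 0 fell, against 11.4% and 13.3% of all tested genes. In PLC/PRF/5 0 rose and 7 fell, against 9.01% and 11.1%. FGA, FGB and FGG are members and are among these calls, so the list is not separate from the fibrinogen genes above. Complement C3, the central complement protein, went from 219.9, 217 and 218 to 308, 294 and 307 CPM in Huh7 and from 1545, 1446 and 1412 to 1309, 1358 and 1323 in PLC/PRF/5. Its fall in PLC/PRF/5 was small, with a log2 fold change of -0.14 ± 0.04 (adjusted p = 0.0278), and that call was lost without PLC/PRF/5 DMSO library 1 or 2 or lenvatinib library 1 or 3 (adjusted p up to 0.089). CEBPD, a transcription factor that drives acute phase genes, also moved in opposite directions, from 9.72, 10.8 and 11.7 to 16.7, 15.3 and 23.4 CPM in Huh7 and from 28.9, 26.6 and 26.9 to 14.1, 13.04 and 11.3 in PLC/PRF/5. Its difference was -1.88 ± 0.23 (adjusted p = 0.00039), and its groups did not overlap in either line.

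Interferon-stimulated genes formed the second opposite set. Of 36 listed genes, 24 were tested, 15 were lower for the difference and 1 was higher. In Huh7 12 of the 24 rose and 3 fell, in PLC/PRF/5 14 fell and 0 rose, and 8 were called with opposite signs. Over all tested genes 6.9% were lower for the difference and 7.49% higher. In Huh7 11.4% of all tested genes rose and 13.3% fell, in PLC/PRF/5 11.1% fell and 9.01% rose, and 1.76% were opposite. The list's median log2 fold change was 0.60 in Huh7 and -0.54 in PLC/PRF/5. IFIT1, which binds viral RNA, stood at 5.25, 6.72 and 6.08 CPM in Huh7 with DMSO and 18.04, 18.1 and 17.6 with lenvatinib, and at 23.7, 28.04 and 26.6 falling to 12.2, 13.2 and 11.3 in PLC/PRF/5. Its changes were 1.57 ± 0.12 and -1.09 ± 0.12 (adjusted p = 6.52e-06 and 0.000205). ISG15, a ubiquitin-like modifier, went from 33.3, 34.9 and 33.1 to 53.2, 46.4 and 55.4 CPM in Huh7 and from 83.4, 71.2 and 86.7 to 28.4, 29.3 and 29.2 in PLC/PRF/5. Its exons overlap those of AL645608.3 on the other strand, and the strand setting of the counting is not given in the sources used here. In both genes the Huh7 controls lay below the PLC/PRF/5 controls, and with lenvatinib that order was reversed without overlap.

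IFIH1, which encodes the RNA sensor MDA5, went from 2.47, 2.59 and 2.15 to 16.3, 11.4 and 17.5 CPM in Huh7, a log2 fold change of 2.65 ± 0.17. In PLC/PRF/5 it went from 35.5, 28.99 and 36.2 to 21.00, 24.7 and 23.1, a change of -0.55 ± 0.16 (adjusted p = 0.0354). The PLC/PRF/5 call was lost when DMSO library 1 or 3 or any of the 3 lenvatinib libraries was left out (adjusted p up to 0.112), while the difference was called in each of those fits. PARP9, an ADP-ribosyltransferase that works with the ubiquitin ligase DTX3L, went from 15.7, 14.7 and 15.6 to 46.1, 48.1 and 55.4 CPM in Huh7 and from 30.8, 24.2 and 21.9 to 12.3, 15.9 and 14.1 in PLC/PRF/5. PARP9 and DTX3L have overlapping exons on opposite strands, so their counts are uncertain. The only member with a higher difference was USP18, which removes ISG15 from proteins, with changes of -1.66 in Huh7 and -0.56 in PLC/PRF/5. It was picked out after its values were seen.

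The windows around the starts of IFIT1, ISG15 and IFIH1 are shown for the letters GAAANNGAA, a motif like the interferon-stimulated response element, searched on both strands. IFIT1 held it 115 and 102 bases before its start, ISG15 at 113, 107 and 101 bases, where the matches overlap, and IFIH1 at 164, 158, 152 and 21 bases, of which the first 3 overlap. In all, 8.29% of the 27305 promoters held it.
IFIT1 (chr10:89392373-89392672, plus strand): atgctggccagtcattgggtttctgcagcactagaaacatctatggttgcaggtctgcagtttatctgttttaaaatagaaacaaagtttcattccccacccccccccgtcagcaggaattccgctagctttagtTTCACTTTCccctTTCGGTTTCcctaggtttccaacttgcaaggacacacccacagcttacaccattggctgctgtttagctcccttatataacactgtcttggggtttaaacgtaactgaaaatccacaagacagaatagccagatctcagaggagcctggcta
ISG15 (chr1:1013247-1013546, plus strand): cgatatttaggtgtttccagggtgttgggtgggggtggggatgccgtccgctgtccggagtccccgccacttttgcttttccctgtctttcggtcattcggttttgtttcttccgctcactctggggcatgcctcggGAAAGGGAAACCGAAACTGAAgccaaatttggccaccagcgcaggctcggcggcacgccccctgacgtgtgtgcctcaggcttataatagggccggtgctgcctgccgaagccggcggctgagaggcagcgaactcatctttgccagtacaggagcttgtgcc
IFIH1 (chr2:162318635-162318934, minus strand): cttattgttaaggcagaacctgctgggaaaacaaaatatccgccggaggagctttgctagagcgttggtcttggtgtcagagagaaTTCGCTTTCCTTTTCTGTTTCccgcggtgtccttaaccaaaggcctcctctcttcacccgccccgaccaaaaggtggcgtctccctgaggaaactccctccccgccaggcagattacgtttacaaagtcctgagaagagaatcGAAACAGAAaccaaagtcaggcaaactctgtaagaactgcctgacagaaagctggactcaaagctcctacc

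Chemokines and other NF-kB targets fell in PLC/PRF/5 more often than tested genes as a whole, while their Huh7 calls were near the shares of all tested genes. Of 22 tested members (27 listed) 12 fell and 1 rose in PLC/PRF/5, 3 rose and 2 fell in Huh7, and 9 were lower and 1 higher for the difference. Over all tested genes 11.1% fell and 9.01% rose in PLC/PRF/5, and 11.4% rose and 13.3% fell in Huh7. For the difference 6.9% of all tested genes were lower and 7.49% higher. CXCL8, the neutrophil attractant interleukin-8, was at 599.6, 611 and 608 CPM in PLC/PRF/5 with DMSO and 87.4, 120.2 and 104 with lenvatinib, a change of -2.55 ± 0.19. In Huh7 it was barely counted, at 2.83, 2.41 and 2.07 with DMSO and 2.19, 1.38 and 2.59 CPM with lenvatinib, and those groups overlapped. CXCL2, a related chemokine, went from 53.1, 48.5 and 52.5 to 5.94, 16.1 and 10.9 CPM in PLC/PRF/5 and from 0.665, 0.356 and 0.4696 to 1.08, 1.15 and 1.895 in Huh7. It was called with opposite signs, but the Huh7 rise of 1.47 ± 0.38 was at a low level and was not called without Huh7 DMSO library 2 or 3 or lenvatinib library 3 (adjusted p up to 0.0698). ICAM1, an adhesion molecule for leukocytes, fell from 986, 928 and 883 to 296, 384 and 347 CPM in PLC/PRF/5. In Huh7 it stood at 21.7, 22.7 and 24.5 with DMSO and 24.7, 14.7 and 32.8 with lenvatinib. The Huh7 change of 0.06 ± 0.22 was bounded within 1.5-fold in the full fit and in 2 of 12 fits with 1 library left out, so its place among the genes of PLC/PRF/5 only is not firm. NFKB2, an NF-kB subunit, had a change of -0.75 ± 0.12 in PLC/PRF/5, against 0.36 ± 0.12 (adjusted p = 0.0626) in Huh7. The single member with a higher difference, the chemokine CX3CL1, picked out after its values were seen, was called in 2 of the 12 fits with 1 library left out.

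The CXCL2 window is shown for GGAANTTCC, a motif like the NF-kB site, which it held 77 bases before its start and which 0.967% of the promoters held.
CXCL2 (chr4:74099146-74099445, minus strand): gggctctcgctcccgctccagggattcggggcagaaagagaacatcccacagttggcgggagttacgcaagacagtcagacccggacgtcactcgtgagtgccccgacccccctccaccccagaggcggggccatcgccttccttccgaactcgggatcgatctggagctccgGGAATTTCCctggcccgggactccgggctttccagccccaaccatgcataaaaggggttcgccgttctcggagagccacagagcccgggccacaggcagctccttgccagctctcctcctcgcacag

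Other genes that rose in Huh7 and fell in PLC/PRF/5 came from several lists. GDF15, a stress-induced hormone of the TGF-beta family, went from 13.3, 14.7 and 14.1 to 25.7, 18.3 and 33.7 CPM in Huh7 and from 446, 439 and 403 to 159, 165 and 156 in PLC/PRF/5. NEU1, the lysosomal sialidase, went from 57.9, 54.8 and 58.1 to 108, 106 and 101 CPM in Huh7 and from 169, 162 and 161 to 124, 129 and 118 in PLC/PRF/5. KLB, the co-receptor through which FGF19 reaches FGFR4, went from 106, 111 and 107 to 176, 206 and 151 CPM in Huh7 and from 133, 135 and 128 to 82.4, 79.6 and 82.9 in PLC/PRF/5. In these 3 genes no library of 1 treatment overlapped the other in either line. MYOF, a membrane repair protein among the YAP targets, had changes of 1.17 ± 0.11 and -0.64 ± 0.11, while 8 of the 18 members of its list fell in Huh7 and 3 rose. Of all tested genes 13.3% fell and 11.4% rose in Huh7. UGT1A1, which conjugates bilirubin, had changes of 0.997 ± 0.20 and -1.08 ± 0.20, but it shares exons with 8 other genes of the UGT1A locus, so its counts are uncertain.

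SQSTM1, the autophagy receptor p62, went from 401, 415 and 400.5 to 1081, 1002 and 1108 CPM in Huh7, a log2 fold change of 1.39 ± 0.04. The PLC/PRF/5 level went from 1136, 1091 and 1074 to 976, 1011 and 966, a change of -0.16 ± 0.04 (adjusted p = 0.0249) that was not called without DMSO library 1 or 2 or lenvatinib library 1 or 3 (adjusted p up to 0.0859). The size of the difference thus lay almost wholly in Huh7. FTL, the light chain of the iron store ferritin, had changes of 0.84 ± 0.08 and -0.35 ± 0.08, and its PLC/PRF/5 call was lost without DMSO library 1 or lenvatinib library 2 (adjusted p up to 0.0564). PLIN2, which coats lipid droplets, had changes of 1.01 ± 0.08 and -0.29 ± 0.08, with the PLC/PRF/5 call lost without DMSO library 1 or 2 or lenvatinib library 1 (adjusted p up to 0.101). APOB, the structural protein of very low density lipoprotein, had changes of 0.75 ± 0.19 and -0.64 ± 0.19, and was opposite in 2 of 12 fits with 1 library left out (adjusted p in PLC/PRF/5 up to 0.105). The differences of SQSTM1, FTL, PLIN2 and APOB were called in all 12 of those fits.

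In the reverse direction, the genes that fell in Huh7 and rose in PLC/PRF/5 included CDCA7, MCM3, EME1 and TOP2A. CDCA7, which recruits a chromatin remodeller and is a target of MYC and E2F, stood at 67.1, 74.96 and 72.5 CPM in Huh7 with DMSO and 36.5, 37.5 and 41.7 with lenvatinib. The PLC/PRF/5 libraries went from 33.4, 35.3 and 32.5 to 61.8, 59.3 and 60.7. Its changes were -0.89 ± 0.07 and 0.85 ± 0.07 (adjusted p = 7.94e-06 and 4.04e-05), nearly equal and opposite. MCM3, a subunit of the replicative helicase, went from 281, 258 and 252 to 116, 108 and 128 CPM in Huh7 and from 136, 135 and 136 to 187, 179 and 198 in PLC/PRF/5. EME1, a subunit of a nuclease that resolves recombination intermediates, had changes of -0.82 ± 0.10 and 0.65 ± 0.10, and its exons overlap those of LRRC59 on the other strand. TOP2A, topoisomerase II alpha, went from 579, 599.8 and 602 to 370.3, 343 and 403 CPM in Huh7 and from 454, 492 and 461 to 539.5, 609 and 587 in PLC/PRF/5. None of these 4 genes had overlapping treatment groups in either line, which was a condition for naming CDCA7, MCM3 and EME1.

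KIF11, a spindle motor, had changes of -0.79 ± 0.06 in Huh7 and 0.21 ± 0.06 in PLC/PRF/5. The rise in PLC/PRF/5 was not called without any one of its 3 DMSO libraries or lenvatinib libraries 1 or 2 (adjusted p up to 0.102). MACROH2A2, a histone variant, had changes of -0.61 ± 0.15 and 0.83 ± 0.16, at levels of 25.1 to 48.0 CPM in Huh7 and 1.77 to 4.10 CPM in PLC/PRF/5. MICAL2, an actin-oxidising enzyme, had the largest difference among the named genes of this direction, 3.84 ± 0.54. It stood at 944, 932 and 506 CPM in Huh7 with DMSO and 118, 262 and 313 with lenvatinib, and at 3.98, 5.11 and 3.84 with DMSO and 19.97, 22.2 and 11.8 with lenvatinib in PLC/PRF/5. Its libraries differed more than 2-fold within a group, and the groups did not overlap, which was a condition for naming it. The difference was 2.29 with limma on log2(FPKM + 1), and with limma's voom and quality weights it was not called (adjusted p = 0.0718).

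The MCM3 window is shown for TTTNGCGC, a motif like the E2F site, which it held 4 bases before its start and which 1.83% of the promoters held.
MCM3 (chr6:52284693-52284992, minus strand): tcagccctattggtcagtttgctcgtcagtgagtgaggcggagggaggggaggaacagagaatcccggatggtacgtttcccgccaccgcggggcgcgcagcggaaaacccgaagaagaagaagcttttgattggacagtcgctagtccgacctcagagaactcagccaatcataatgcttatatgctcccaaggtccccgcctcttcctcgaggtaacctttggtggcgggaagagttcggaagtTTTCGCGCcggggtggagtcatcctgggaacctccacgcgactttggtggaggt

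**Figure D2:**
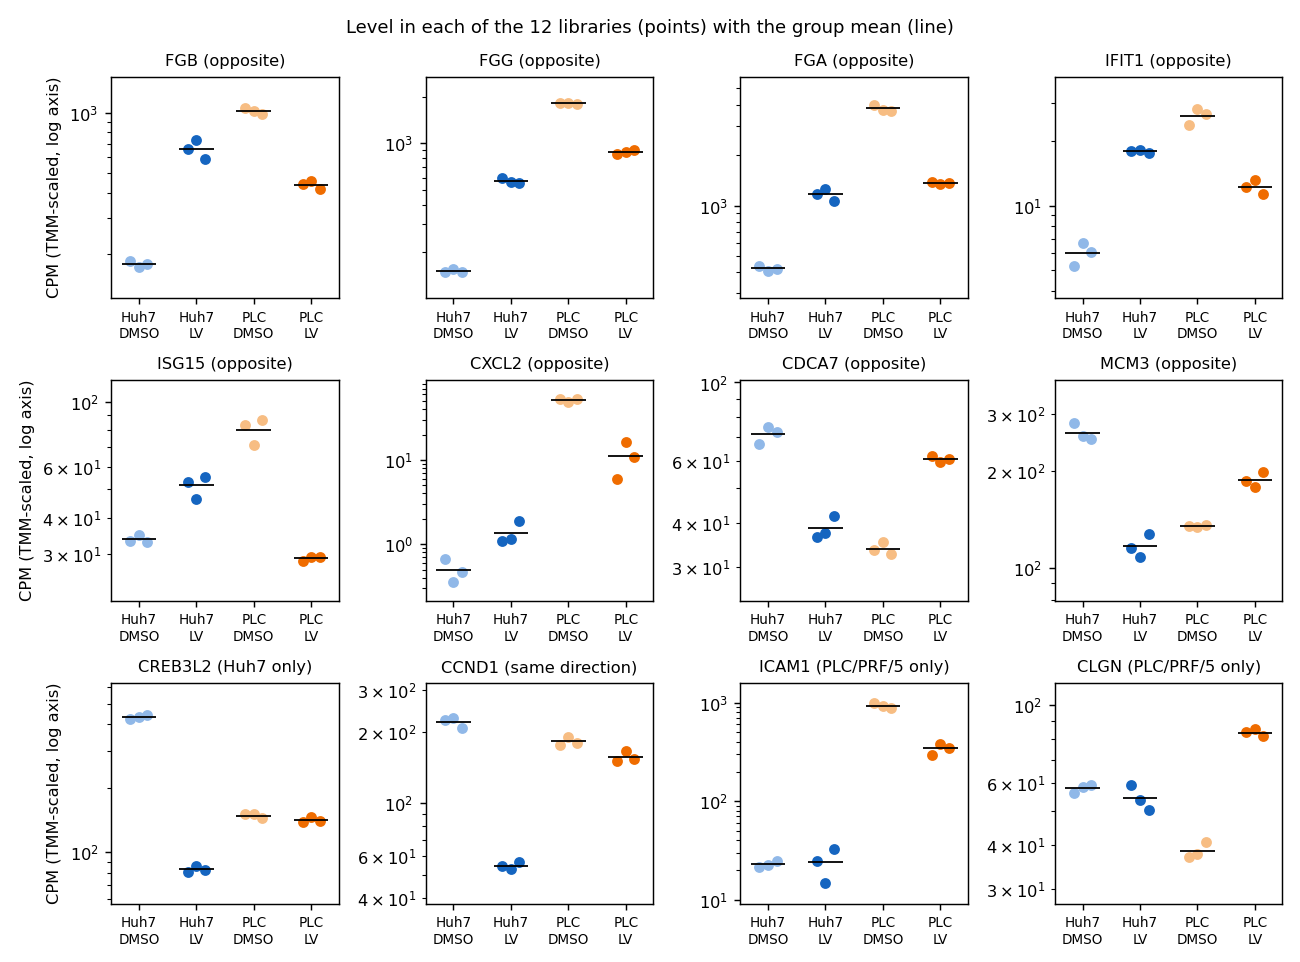
The level of 12 genes in each library is given in CPM on a log axis, by line and treatment (LV, lenvatinib), with a line at the group mean. In the opposite genes the lenvatinib points move up in 1 line and down in the other, CREB3L2 and CCND1 move mainly in Huh7, and ICAM1 and CLGN move in PLC/PRF/5, where the ICAM1 points lie at 296 to 986.

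Replication genes as a list fell in Huh7 and stayed near their controls in PLC/PRF/5. All 25 listed genes were tested and 24 were called for the difference, all higher, with a median difference of 1.33. In Huh7 24 fell and 0 rose, with log2 fold changes from -2.51 to -0.43 over the list. Of the same genes 2 fell and 1 rose in PLC/PRF/5, where the range was -0.44 to 0.49. Of the 24, 14 were Huh7 only, 7 were unsettled in PLC/PRF/5, 2 fell in both lines and 1 was opposite (MCM3). Over all tested genes 7.49% were higher for the difference, 13.3% fell in Huh7, and 11.1% fell and 9.01% rose in PLC/PRF/5. Of all tested genes 5.1% were Huh7 only and 1.76% opposite. CDC45, which with the MCM proteins forms the active helicase, stood at 28.97, 25.8 and 26.1 CPM in Huh7 with DMSO and 8.31, 5.55 and 8.38 with lenvatinib. In PLC/PRF/5 it was at 29.99, 26.4 and 28.9 with DMSO and 29.3, 33.2 and 25.8 with lenvatinib, where the groups overlapped. CDT1, which licenses origins, had changes of -1.35 ± 0.10 and -0.11 ± 0.10 (adjusted p in PLC/PRF/5 = 0.477). FEN1, the flap endonuclease, fell in both lines, with log2 changes of -1.32 ± 0.07 and -0.25 ± 0.07, and the PLC/PRF/5 call was lost when any 1 of its 6 libraries was left out (adjusted p up to 0.078).

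Mitotic genes followed with smaller changes. Of 25 tested, 20 were higher for the difference and 0 lower, with a median difference of 0.70. In Huh7 22 fell and 0 rose, and in PLC/PRF/5 5 rose and 4 fell. Of the 20, 13 were Huh7 only and 4 were opposite. Over all tested genes 7.49% were higher for the difference, 13.3% fell in Huh7, and 9.01% rose and 11.1% fell in PLC/PRF/5. Of all tested genes 5.1% were Huh7 only and 1.76% opposite. TPX2, a spindle assembly factor, went from 629.5, 635 and 616 to 385, 378 and 410.00 CPM in Huh7 and was at 278, 275 and 267 with DMSO and 263, 285 and 269 with lenvatinib in PLC/PRF/5. CCNA2, cyclin A2, had changes of -0.65 ± 0.06 in Huh7 and 0.16 ± 0.06 in PLC/PRF/5 (adjusted p = 0.0869). RNA from pools of cells cannot tell fewer cells in a phase from less RNA per cell.

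ERK output differed most in size. Of 16 tested genes (18 listed) 12 were higher for the difference and 1 lower, with a median difference of 2.07 on the log2 scale. In Huh7 14 fell and 0 rose, in PLC/PRF/5 7 fell and 1 rose, and the median log2 fold changes were -2.88 and -0.52. Over all tested genes 7.49% were higher for the difference and 6.9% lower, 13.3% fell in Huh7, and 11.1% fell in PLC/PRF/5. Of the 13 members called for the difference, 7 were unsettled in 1 line and 4 moved the same way in both. The others were 1 of Huh7 only and 1 of PLC/PRF/5 only. SPRY4, a feedback inhibitor of receptor signalling, stood at 57.1, 68.9 and 72.3 CPM in Huh7 with DMSO and 2.12, 1.12 and 1.66 with lenvatinib. In PLC/PRF/5 it was at 30.8, 28.6 and 33.7 with DMSO and 21.5, 24.1 and 26.1 with lenvatinib, a change of -0.38 ± 0.18 that was not called (adjusted p = 0.173) although the groups did not overlap. ETV5, a PEA3 factor, went from 44.9, 47.6 and 46.2 to 1.92, 1.38 and 1.52 CPM in Huh7, and stood at 43.4, 50.3 and 47.2 with DMSO and 36.6, 43.8 and 38.2 with lenvatinib in PLC/PRF/5. The controls of the lines were at like levels, and only the Huh7 libraries with lenvatinib were apart. ETV4 fell in both lines, with log2 changes of -4.02 ± 0.23 and -0.76 ± 0.20, with the PLC/PRF/5 call lost without DMSO library 1 or 3 or any 1 of the lenvatinib libraries (adjusted p up to 0.0723). CCND1, cyclin D1, went from 224, 229 and 206 to 54.8, 53.02 and 56.5 CPM in Huh7 and from 176, 189.9 and 179 to 150.2, 165 and 154 in PLC/PRF/5. That second change of -0.22 ± 0.06 was not called without DMSO library 2 or lenvatinib library 1 or 3 (adjusted p up to 0.0789). The member that went the other way was PHLDA1, with changes of 0.07 in Huh7 and -1.03 in PLC/PRF/5, picked out after its values were seen.

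**Figure D3:**
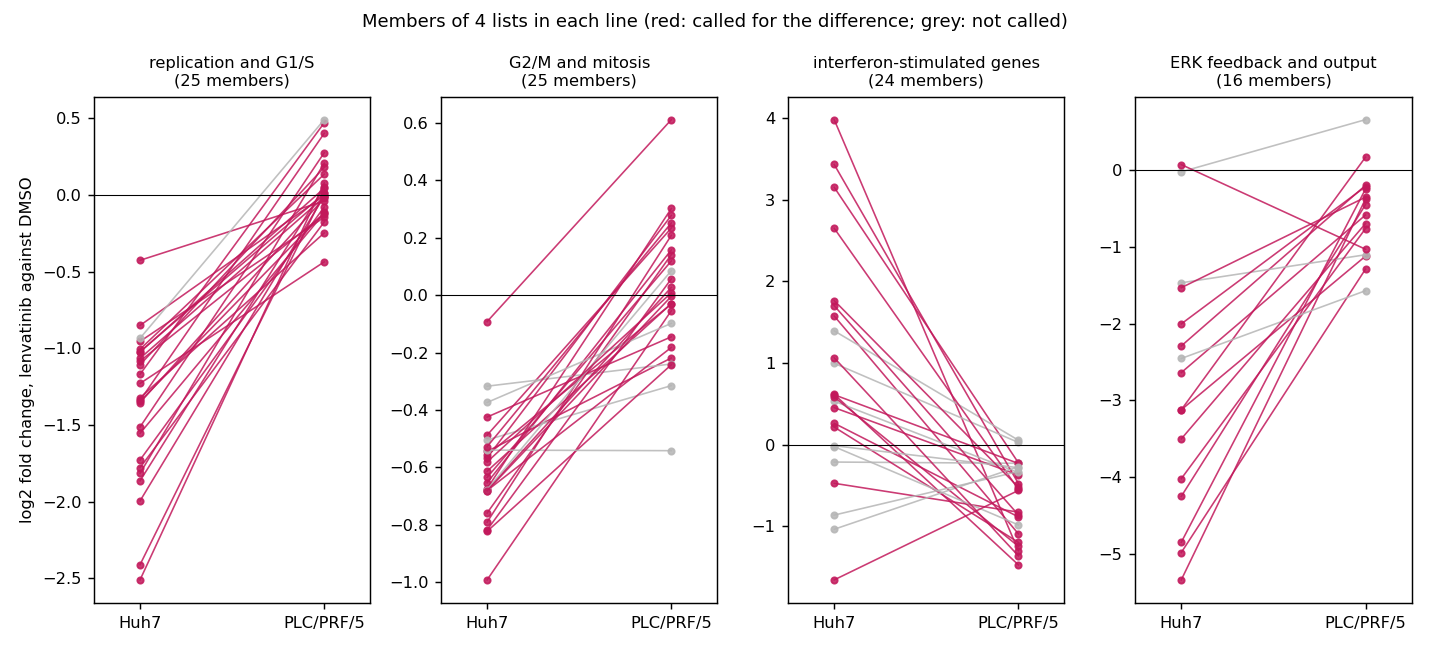
Each line joins the log2 fold change of 1 gene in Huh7 and in PLC/PRF/5, for the members of 4 lists, with genes called for the difference in red and the vertical scale set for each panel. Replication members lie at -2.51 to -0.43 in Huh7 and around 0 in PLC/PRF/5, the interferon-stimulated genes mostly cross from above 0 to below, and ERK output lies far lower in Huh7.

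Among the other genes of Huh7 only, CREB3L2, a membrane-bound stress transcription factor, went from 424, 434 and 444 to 80.95, 86.4 and 82.2 CPM in Huh7, and was at 151, 152 and 144 with DMSO and 139, 147 and 140.1 with lenvatinib in PLC/PRF/5. Its changes were -2.38 ± 0.05 and -0.07 ± 0.04 (adjusted p = 5.72e-10 and 0.317). The long non-coding RNA LINC02331 fell from 47.05, 44.7 and 47.5 to 4.29, 2.62 and 3.11 CPM in Huh7 against 21.7, 21.2 and 21.8 with DMSO and 23.7, 22.3 and 22.9 with lenvatinib in PLC/PRF/5. SOX9, a progenitor and bile duct factor, fell from 110.1, 109.8 and 111 to 18.9, 23.6 and 19.7 CPM in Huh7. It was low in PLC/PRF/5, at 4.20 to 6.37 CPM in all 6 libraries. IVNS1ABP, a kelch protein, fell in Huh7 with a change of -2.13 ± 0.07, and its PLC/PRF/5 change was 0.01 ± 0.07. Among the genes that rose only in Huh7, AGT, angiotensinogen, went from 143, 127 and 139.6 to 404, 479 and 322 CPM in Huh7 and was at 896, 843 and 842 with DMSO and 840.1, 834 and 835 with lenvatinib in PLC/PRF/5. PEG10, an imprinted retrotransposon-derived gene, rose from 204, 212 and 201 to 500.5, 626 and 449 CPM in Huh7. In PLC/PRF/5 it was at 227, 232 and 212 with DMSO and 197, 196 and 195 with lenvatinib, and without Huh7 lenvatinib library 2 its fall there was called (adjusted p = 0.0279). CAPN2, a calpain protease, rose by 1.94 ± 0.23, but its PLC/PRF/5 change was bounded in 6 of 12 fits with 1 library left out.

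Among the genes of PLC/PRF/5 only, CLGN, a calnexin-like chaperone known from testis, stood at 36.9, 37.8 and 40.9 CPM with DMSO and 83.9, 85.4 and 81.7 with lenvatinib. In Huh7 it was at 56.2, 58.5 and 59.4 with DMSO and 59.2, 53.7 and 50.4 with lenvatinib, and those groups overlapped. SCAMP1, a carrier protein of recycling vesicles, rose by 0.97 ± 0.13 in PLC/PRF/5, against -0.26 ± 0.13 in Huh7, and was no longer bounded in Huh7 without DMSO library 1 or lenvatinib library 3. Of the genes that fell, the mucin MUC13 went from 313, 303 and 294 to 69.6, 89.97 and 81.98 CPM and was near 2.27, 2.08 and 2.24 CPM in Huh7 with DMSO. NR4A1, an immediate early nuclear receptor, went from 178, 182 and 181 to 58.8, 62.4 and 65.5 CPM in PLC/PRF/5, while in Huh7 it was at 6.53, 5.14 and 6.17 with DMSO and 4.76, 5.500 and 8.56 with lenvatinib, with the Huh7 change no longer bounded without DMSO library 1 or lenvatinib library 1 or 2. FILIP1L had the largest fall of these, -2.23 ± 0.13, at 0.658 to 3.97 CPM in PLC/PRF/5 against 65.8 to 79.8 CPM in Huh7. At this low level its difference of -2.37 ± 0.16 was -0.584 with limma on log2(FPKM + 1), and was called there too. PDK4, a kinase that shuts off pyruvate dehydrogenase, went from 182, 194 and 204 to 84.3, 94.5 and 86.3 CPM in PLC/PRF/5 and had a change of 0.21 ± 0.09 in Huh7 (adjusted p = 0.125). Without Huh7 lenvatinib library 2 the Huh7 rise of PDK4 was called (adjusted p = 0.017).

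Genes that moved the same way in both lines differed in size, 83 of 103 falls and 51 of 74 rises being larger in Huh7. CCN2, a matricellular YAP target, fell from 640.2, 668 and 644 to 22.8, 19.4 and 25.5 CPM in Huh7 and from 113, 104 and 103 to 31.6, 27.4 and 32.9 in PLC/PRF/5, with changes of -4.85 ± 0.11 and -1.80 ± 0.10. EPHA2, an ephrin receptor and ERK target, fell in both, with changes of -3.50 ± 0.15 and -0.70 ± 0.13. NUPR1, a stress-induced chromatin protein, rose from 16.5, 13.96 and 13.9 to 119.9, 109 and 90.01 CPM in Huh7 and from 11.2, 8.57 and 7.83 to 22.6, 17.4 and 20.9 in PLC/PRF/5. AKR1C2, an aldo-keto reductase and NRF2 target, rose by 2.19 ± 0.12 and 0.87 ± 0.12, but its near-identical family members make its counts uncertain. SLC1A4, a transporter of serine and alanine, was the exception in size among the named genes. It rose more in PLC/PRF/5, from 42.3, 41.9 and 46.6 to 118, 118 and 124 CPM, than in Huh7, from 96.9, 90.6 and 95.05 to 109.6, 107 and 124, where the call was lost without DMSO library 2 (adjusted p = 0.057). UBASH3B, a phosphatase, fell in both lines, with changes of -2.997 ± 0.15 in Huh7 and -0.48 ± 0.14 in PLC/PRF/5. The second fall was not called when any 1 of the 6 PLC/PRF/5 libraries was left out (adjusted p up to 0.0998), and since the gene is higher in PLC/PRF/5, the fall counted in CPM was larger there.

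For the stress and metabolic lists, the share of members called for the difference is given. Over all tested genes it was 14.4% (7.49% higher, 6.9% lower). ATF4 targets of amino acid stress had median log2 fold changes of 0.62 in Huh7 and 0.61 in PLC/PRF/5. Of these targets 48.15% were called for the difference, 9 of 27 higher and 4 lower (2 to 7 lower with 1 library left out). SLC38A2, a glutamine transporter, fell in both lines, with changes of -1.56 ± 0.09 and -0.52 ± 0.08, whereas VLDLR, a lipoprotein receptor, had changes of -0.86 ± 0.11 and 0.42 ± 0.11. The VLDLR rise in PLC/PRF/5 was not called without any 1 of its DMSO libraries or lenvatinib library 2 or 3 (adjusted p up to 0.0872). In the hypoxia and glycolysis list 12 of 28 were higher and 3 lower (53.6% called). PDK1, which holds back pyruvate dehydrogenase, went from 67.4, 68.5 and 68.2 to 20.1, 24.9 and 21.7 CPM in Huh7 and stood at 45.7, 46.5 and 45.00 with DMSO and 42.7, 41.6 and 41.6 with lenvatinib in PLC/PRF/5. ENO1, the glycolytic enolase, fell in both lines, with changes of -0.71 ± 0.04 and -0.18 ± 0.04. NRF2 targets had 3 of 22 higher and 6 lower (40.9% called). Endoplasmic reticulum chaperones had 6 of 20 higher and 1 lower (35% called). YAP and TEAD targets had 6 of 18 higher and 3 lower (50% called, with 1 to 3 lower when 1 library was left out). Immediate early genes had 0 of 14 higher and 5 lower (35.7% called). Heat shock chaperones had 0 of 14 higher and 3 lower (21.4% called), HSPA8, HSPB1 and HSP90AA1. With 1 library left out that list had 1 to 6 lower, HSPB1 being called in 4 and HSP90AA1 in 3 of the 12 fits. The p53 targets had 1 of 17 higher and 1 lower (11.8% called, below the share of all tested genes).

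Most of the liver, lipid, antigen presentation, progenitor and matrix lists held more lower than higher calls. The albumin and apolipoprotein, progenitor and matrix lists held as many higher as lower. Of all tested genes 14.4% were called for the difference (7.49% higher, 6.9% lower). The lists that follow here had from 21.7% (fatty acid metabolism) to 47.1% (drug and bile acid genes) called. Drug and bile acid genes had 8 of 17 tested members (33 listed) lower and 0 higher, with a median difference of -1.17, and coagulation and complement genes 6 of 20 lower and 0 higher, with a median of -0.40. ABCC2, an export pump of the bile canaliculus, went from 24.4, 24.1 and 22.4 to 60.02, 63.3 and 52.98 CPM in Huh7. In PLC/PRF/5 it was at 273, 262 and 266 with DMSO and 295, 293 and 299.9 with lenvatinib, and those groups did not overlap. Without Huh7 lenvatinib library 3 ABCC2 was classed as rising in both lines. CYP1A1, a target of the aryl hydrocarbon receptor, rose by 2.91 ± 0.24 in Huh7 and had a change of 0.19 ± 0.22 in PLC/PRF/5 (adjusted p = 0.605). Hepatocyte transcription factors had 5 of 20 lower and 2 higher (1 higher in 10 of the 12 fits with 1 library left out). Albumin and apolipoprotein genes were split, 3 of 18 higher and 3 lower (3 to 6 lower with 1 library left out), with APOA1, the main protein of high density lipoprotein, rising by 2.10 ± 0.28 in Huh7 and AFP, the fetal albumin, falling there with a change of -0.45 ± 0.09. Cholesterol synthesis had 7 of 24 lower and 1 higher, but leaving out 1 library gave 2 to 9 lower, with at most 4 in 8 of the 12 fits. Fatty acid metabolism had 5 of 23 lower and 0 higher. MHC class I presentation had 5 of 12 lower and 0 higher (3 to 6 lower with 1 library left out), among them HLA-E, which went from 44.7, 43.99 and 41.6 to 75.9, 72.9 and 71.6 CPM in Huh7 against 157, 152 and 152 with DMSO and 150.4, 138 and 137 with lenvatinib in PLC/PRF/5. Progenitor markers and matrix genes were split, each with 3 higher and 3 lower, of 13 and 18 tested, the matrix genes with 1 to 3 lower when 1 library was left out. The median change in PLC/PRF/5 was 0.20 for coagulation and complement, 0.15 for albumin and apolipoproteins and 0.07 for cholesterol synthesis, while the summed hepatocyte markers were lower there with lenvatinib through APOB and FGB. The part of those markers was not tested.

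**Figure D4:**
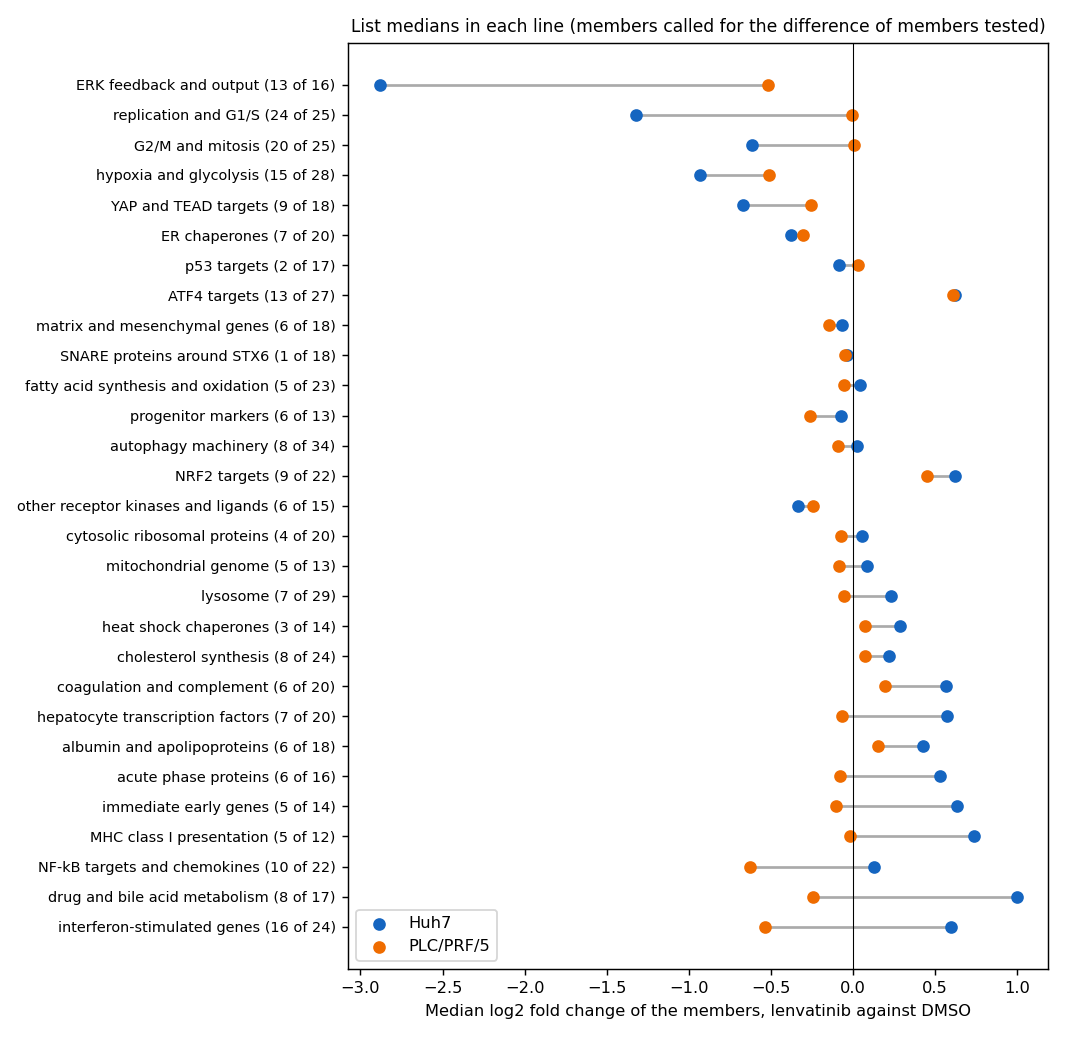
Points give the median log2 fold change of each list's members in Huh7 and in PLC/PRF/5, for lists with at least 10 tested members, ordered by the median difference, with the members called for the difference of those tested in brackets. ERK output and the replication genes have the lowest Huh7 medians, at -2.88 and -1.32, and the interferon-stimulated genes lie at 0.60 in Huh7 and -0.54 in PLC/PRF/5.

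Autophagy machinery had 8 of 34 members lower and 0 higher, or 23.5% called against 14.4% of all tested genes. With 1 library left out 4 to 9 were lower. Lysosomal genes had 7 of 29 lower and 0 higher (24.1% called). ATG13, a subunit of the kinase complex that starts autophagosomes, fell in PLC/PRF/5 with a change of -0.83 ± 0.08, against -0.19 ± 0.08 in Huh7 (adjusted p = 0.101). Of the 18 SNARE genes around STX6, 1 was called (5.56%, below the share of all tested genes). It was STX8, a late endosome syntaxin, with changes of -0.04 ± 0.08 and 0.40 ± 0.08. Its difference was not called in 9 of the 12 fits with 1 library left out (adjusted p up to 0.0753). STX6 itself, the syntaxin named in the study's title, stood at 54.2, 46.6 and 50.7 CPM in Huh7 with DMSO and 51.1, 53.02 and 44.4 with lenvatinib, and at 75.8, 18.03 and 78.6 with DMSO and 81.9, 84.9 and 28.9 with lenvatinib in PLC/PRF/5. Library 2 of the DMSO group and library 3 of the lenvatinib group were low in PLC/PRF/5, and its difference of 0.21 ± 0.70 was not called (adjusted p = 0.901). The FPKM of STX6 do not follow its counts: their ratio varied 11.4-fold among libraries, against at most 1.11-fold in the other named genes. Of 11 listed receptors of lenvatinib, 4 were tested and 0 were called for the difference. Other receptor kinases and ligands had 40% called, 2 of 15 higher and 4 lower (1 to 2 and 1 to 3 with 1 library left out). Metallothioneins had 0 of 4 called. Cytosolic ribosomal proteins had 4 of 20 lower (20% called) and the mitochondrial genome 5 of 13 lower (38.5% called). Each had 0 higher, and their medians were -0.18 and -0.22. The ribosomal calls were mostly not stable: RPL5, RPL10A, RPL30 and RPS12 were called in 5, 5, 2 and 2 of the 12 fits with 1 library left out, and none of the 4 was called with library totals alone, without the filter on low genes or with limma on FPKM. The mitochondrial count was 4 to 9 in the leave-one-out fits, with 9 without Huh7 lenvatinib library 3.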

How the data were processed

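Bulk RNA-seq of 12 libraries was used, 3 for each of the 4 combinations of line (Huh7, PLC/PRF/5) and treatment (DMSO, lenvatinib), as the labels group them. Per the labels' protocols, RNA from an RNeasy kit was primed with random hexamers and read on a BGIseq500 as single 50-base reads. HISAT2 is the aligner and hg19 the build that appear in the submitters' processing notes. Which program counted the reads, and with what strand setting, is not given in the sources used here. Per the file headers, raw counts and FPKM were deposited by the authors side by side for each library, in a table of 40825 genes known by symbol only. A further 12 columns, of another line, were not used here.

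From the counts, edgeR 4.0.16 (quasi-likelihood F test, robust, TMM, 1 coefficient per group, R 4.3.3) gave the change in each line and their difference for the 15587 genes whose mean FPKM reached 0.5. Benjamini-Hochberg adjustment ran over all of these, with a threshold of 0.05. Each standard error was taken as the log2 fold change divided by the root of its F value. The common biological coefficient of variation was 0.234. The model was tested on simulated data with genes changed by known folds.

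The comparison, the 31 gene lists and the genes named were chosen with earlier results of these data known. Named genes are STX6, the 5 (opposite) or 4 (other classes) largest differences per class and direction among genes of mean FPKM 5 or more without replicate overlap in a called line, and up to 4 members per list with the smallest adjusted p, where the mean FPKM is 1 or more. The text describes part of them. Replicates of a group differed well beyond counting noise, so none was counted as a duplicate. Same-numbered libraries were not treated as pairs. Correlations of their deviations from the group means, over all tested genes, ran from -0.0314 to 0.0451. Such values do not exclude a pairing that acts on part of the genes. Alternatives were other scalings, filters, tools (DESeq2 1.42.0, limma 3.58.1), thresholds, a replicate block and leaving out each library. GENCODE 29 (GRCh38, so not the build of the submitters) gave positions and exon overlaps. Promoters are RefSeq windows on GRCh38.p14, and their motifs were chosen with these windows known.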

Additional observations from a re-analysis of the deposited data

Results flagged for a closer look

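The response to lenvatinib differed between the lines by the test of the difference itself in 2243 genes, and 274 of them were called in both lines with opposite signs. Each value here is the PLC/PRF/5 change minus the Huh7 change on the log2 scale, from edgeR's quasi-likelihood test. The classes are those of the full fit, and some genes changed class with 1 library left out. Among genes that rose in Huh7 and fell in PLC/PRF/5, the log2 difference was -3.69 for CXCL2, -3.20 for IFIH1, -3.11 for FGB, -2.96 for FGG, -2.94 for FGA, -2.67 for IFIT1, -2.56 for PARP9 and -2.31 for GDF15. In the same class it was -2.09 for ISG15, -2.08 for UGT1A1, -1.88 for CEBPD, -1.81 for MYOF, -1.55 for SQSTM1, -1.41 for KLB, -1.39 for APOB and -1.30 for PLIN2. In the same class it was -1.29 for NEU1, -1.20 for FTL and -0.62 for C3. Among genes that fell in Huh7 and rose in PLC/PRF/5, it was 3.84 for MICAL2, 1.74 for CDCA7, 1.64 for MCM3, 1.46 for EME1, 1.44 for MACROH2A2, 1.28 for VLDLR, 0.999 for KIF11 and 0.98 for TOP2A. Of the genes that rose only in Huh7, the difference was -1.91 for CAPN2, -1.60 for AGT, -1.54 for PEG10, -1.17 for ABCC2 and -0.87 for HLA-E. Of the genes that fell only in Huh7, it was 4.60 for ETV5, 3.89 for LINC02331, 2.31 for CREB3L2, 2.20 for SOX9, 2.15 for IVNS1ABP, 1.91 for CDC45, 1.49 for PDK1 and 1.23 for CDT1. In the same class it was 0.81 for CCNA2, 0.68 for TPX2 and 0.60 for AFP. Of the genes that rose only in PLC/PRF/5, it was 1.23 for SCAMP1, 1.21 for CLGN and 0.44 for STX8. Of those that fell only in PLC/PRF/5, it was -2.37 for FILIP1L, -1.77 for MUC13, -1.61 for NR4A1, -1.51 for ICAM1, -1.34 for PDK4 and -0.64 for ATG13. Where both lines rose, the difference was -1.71 for NUPR1, -1.32 for AKR1C2 and 1.19 for SLC1A4. Where both lines fell, it was 3.26 for ETV4, 3.05 for CCN2, 2.80 for EPHA2, 2.52 for UBASH3B, 1.79 for CCND1, 1.07 for FEN1, 1.04 for SLC38A2 and 0.53 for ENO1. Where the second line was neither called nor bounded, the difference was 4.96 for SPRY4, -2.72 for CYP1A1, -2.30 for CXCL8, -1.67 for APOA1 and -1.10 for NFKB2. Among the heat shock and ribosomal genes it was -0.78 for HSPA8, -0.47 for HSPB1, -0.41 for HSP90AA1, -0.20 for RPL5, -0.28 for RPL10A, -0.29 for RPL30 and -0.26 for RPS12.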

How the results depend on the processing

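The count of genes called higher (1167) or lower (1076) for the difference kept within 1.5 times under 29 of 31 other settings, and 174 of 194 class and difference counts did so over all settings. Against a 1.5-fold threshold (glmTreat) 201 genes were higher and 155 lower, with 111 opposite, 90 Huh7 only, 20 PLC/PRF/5 only and 32 in the same direction. At an adjusted p threshold of 0.01 these were 611, 474, 96, 462, 201 and 57. Both settings are stricter by construction. Without the filter on low genes 176 were opposite and 106 in the same direction, and DESeq2 gave 271 in the same direction, with the cause not tested. Bounding the other line more tightly left 420 Huh7 only and 299 PLC/PRF/5 only. With library totals alone as the scaling, 61.8% of the called genes were higher, against 52% with TMM factors. Leaving out each library in turn gave 634 to 830 Huh7 only, 340 to 473 PLC/PRF/5 only, 187 to 305 opposite, 118 to 199 in the same direction, 936 to 1211 higher and 846 to 1096 lower. Of the 274 opposite genes, 172 to 229 were opposite in each of those fits.

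A replicate block across both lines gave 1047 higher and 910 lower. A replicate block within each line gave 902 higher, 745 lower, 178 opposite, 316 PLC/PRF/5 only and 92 in the same direction. The numbers are not known to pair libraries.

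For single genes, 3850 of 4072 values kept their call and 222 lost it. On the log2 scale 0 reversed their sign where either of the 2 fits compared was called. The uncalled difference of STX6 had either sign. It ran from -0.21 to 0.57 with 1 library left out and from -0.31 to 0.33 in the other fits. Counted as a difference in CPM, 3 named genes had the other sign: UBASH3B at -5.98, PDIA4 at -38.8 and LGR5 at -0.706 CPM, against positive log2 differences. When 2844 genes with 1 library more than 2-fold from the others were left out, a setting chosen after seeing the data, 301 genes were opposite. Leaving out mitochondrial transcripts gives no value for the mitochondrial list. With limma on log2(FPKM + 1), which shrinks low genes by construction, the difference was called but over 1.5 times smaller in MICAL2 (2.29), FILIP1L (-0.584), CAPN2 (-0.942), UBASH3B (1.08), ETV5 (2.49), SPRY4 (2.72) and IFIH1 (-1.705). The effect of depth was not tested.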
